A study of Mus musculus with 6 samples.

Results

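Myeloid lineage transcription factors are the nuclear proteins that commit blood progenitors to granulocytes or monocytes, and 10 of their genes were followed here in mouse leukemic blasts: Spi1, Cebpa, Cebpb, Cebpd, Cebpe, Irf8, Gfi1, Klf4, Runx1 and Myb. Each symbol matched 1 Ensembl gene among the 35932 in the count table, so all 10 were found, and all 10 had enough counts to be tested. The material was RNA from bone marrow labelled as myeloid leukemic blasts carrying MLL-AF9, a fusion of Kmt2a and Mllt3. The 3 resistant libraries carried the treatment label Cytarabin+Doxorubicin, a nucleoside analog with an anthracycline, and the 3 sensitive libraries the label vehicule. All 6 libraries shared the fusion, resistance went together with drug exposure, and the labels give no dose, harvest time, strain, age or statement of how the fusion was introduced. Nothing in the labels says that libraries of a group came from separate animals, so each p-value speaks of the spread among the libraries of a group, and that spread may be technical.

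Each library held between 22206341 and 31856009 counts in all, and 3 counts, taken as the floor, came to 0.0945 to 0.137 CPM (counts scaled to library size and composition by TMM). All 9 blast markers examined, among them Ptprc, Kit, Cd34, Mpo and Hoxa9, were detected, with summed levels of 3371 to 3850 CPM in resistant and 3566 to 4089 CPM in sensitive libraries. The similar sums hide changes in opposite directions by the edgeR test described below. Cd34, Cd33 and Hoxa9 were higher in resistant blasts, Kit, Itgam and Fcgr3 were lower, and 3 did not pass. Of all genes tested, 18.5% were higher and 20.8% were lower. Most lymphoid markers were at or near 0, but not all. Of the B cell markers, Ms4a1 and Pax5 averaged 0 CPM in resistant and at most 0.113 CPM in sensitive libraries, while Cd79b averaged 38.3 ± 1.61 CPM in resistant and 38.9 ± 1.52 CPM in sensitive libraries and made up most of the list's sum. Of the T and NK cell markers, Cd3e averaged 0.0152 CPM in resistant and 0.0115 CPM in sensitive libraries, and Nkg7 made up most of a sum of 71.7 to 98.3 CPM in resistant and 49.1 to 66.8 CPM in sensitive libraries. Markers of red cells and mature neutrophils differed between the groups and are given beside the results that they accompany. RNA from a bulk sample does not separate fewer cells of a type from less RNA per cell.

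In normal blood formation PU.1, the product of Spi1, opens myeloid enhancers, and RUNX1 is needed for the progenitors in which it acts. C/EBPα then directs cells toward the granulocyte and monocyte line, GFI1 represses monocyte genes and favours neutrophils, and IRF8 with KLF4 favours monocytes and restrains neutrophil production. C/EBPε drives late granulocyte maturation, C/EBPβ and C/EBPδ act in monocytes and in granulocytes made under stress, and MYB sustains dividing progenitors and is required by MLL-AF9 leukemia in mouse models.

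RefSeq promoter windows (GRCm38.p6, 250 bases before and 50 after an annotated start) were given for 7 of the 10 genes, in 10 windows. The table held none for Spi1, Cebpd or Cebpe. Shown are the windows of the member with the largest well-counted fall, of Irf8, which also fell more than 2-fold, and of a member whose window held copies of its own family's motif. Capitals mark the C/EBP core TTGCG in Cebpa, the GFI1 core AATCAC in Irf8 and the RUNX core TGTGGT in Runx1, on either strand.
Cebpa, chr7:35119043-35119342, plus strand: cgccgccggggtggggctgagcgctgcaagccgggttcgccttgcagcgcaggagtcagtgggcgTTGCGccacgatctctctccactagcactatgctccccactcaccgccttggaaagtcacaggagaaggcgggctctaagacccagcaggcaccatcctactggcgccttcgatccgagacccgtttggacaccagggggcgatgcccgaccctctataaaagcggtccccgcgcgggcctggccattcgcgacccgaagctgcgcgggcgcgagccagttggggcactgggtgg
Irf8, chr8:120736108-120736407, plus strand: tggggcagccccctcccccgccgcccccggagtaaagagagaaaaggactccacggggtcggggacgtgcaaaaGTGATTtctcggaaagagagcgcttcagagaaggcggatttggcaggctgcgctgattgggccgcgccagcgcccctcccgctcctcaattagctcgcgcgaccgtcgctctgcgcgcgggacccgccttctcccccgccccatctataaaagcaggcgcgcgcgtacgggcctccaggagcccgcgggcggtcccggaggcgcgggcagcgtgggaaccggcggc
Runx1, chr16:92826025-92826324, minus strand: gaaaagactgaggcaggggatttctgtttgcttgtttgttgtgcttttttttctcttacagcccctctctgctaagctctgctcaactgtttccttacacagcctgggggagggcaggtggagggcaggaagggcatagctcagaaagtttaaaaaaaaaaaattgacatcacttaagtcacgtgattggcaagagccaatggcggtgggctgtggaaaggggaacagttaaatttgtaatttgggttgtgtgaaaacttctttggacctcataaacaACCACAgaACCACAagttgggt

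The C/EBP core began at position -185 from the start of Cebpa, and it was in 17.4% of all 32851 windows. Of the members' windows, 2 of 10 held it, those of Cebpa and Myb. The GFI1 core was in 3 of 10 members' windows, 1 of Irf8 and 2 of Runx1, against 10.4% of all windows. Both RUNX cores of Runx1 lay just past the start, and 16.8% of all windows held that core. The PU.1 core GAGGAA was in 1 of 10 members' windows (28.3% of all windows), the KLF core CCACCC in 4 (31.5%), the MYB core AACNG in 9 (80.3%) and the IRF element, GAAA repeated with a gap of 2 bases, in 0 (3.44%). A match describes the letters of these windows only, and no binding was measured.

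Resistant blasts held less mRNA of the factors at the granulocyte and monocyte branch, and the changes were uneven: Cebpa fell 3.81-fold and Irf8 2.15-fold, while Spi1, Myb and Cebpe did not pass the test. Of the 10 genes, 7 were lower, 0 were higher and 3 did not pass (edgeR quasi-likelihood test, Benjamini-Hochberg adjustment over all genes tested, threshold 0.05). Among all 13414 genes tested, 20.8% were lower, 18.5% were higher and 39.2% changed in either direction. The median log2 fold change, resistant over sensitive, was -0.36 over the 10 genes and -0.01 over all genes tested. The 3 resistant values lay below the 3 sensitive values in 6 of the 10, against 27.2% of all genes tested, and above them in 0 of the 10, against 25.2%. In the fits that left out 1 library, the count of lower members was 9 without resistant library 2, which lay at -27.6 on the second principal component against 11.1 and 15.3 for the other resistant libraries, 6 without resistant library 1 or 3, 7 without sensitive library 1, and 5 without sensitive library 2 or 3.

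**Figure D1:**
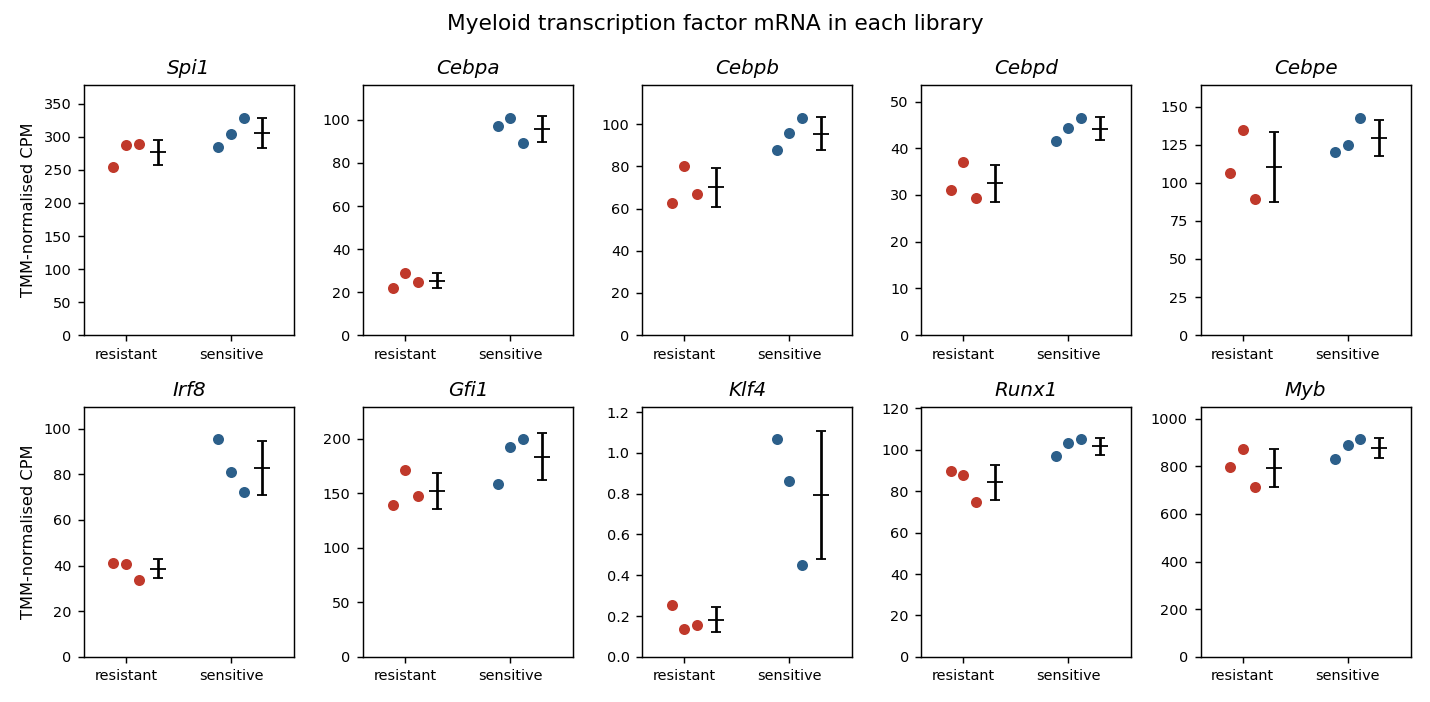
Level of each of the 10 factors in every library, in TMM-normalised CPM, with 3 resistant libraries in red and 3 sensitive libraries in blue; bars give the mean and SD of 3. The groups are widest apart for Cebpa, Irf8 and Klf4, and they overlap for Spi1, Cebpe, Gfi1 and Myb.

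Of the C/EBP genes among the members, only Cebpa fell more than 2-fold. Cebpa (ENSMUSG00000034957, chromosome 7), the factor without which mice form no granulocytes, had 22.1, 29.1 and 24.6 CPM in the resistant libraries, against 97.2, 101 and 89.1 CPM in the sensitive ones. The highest resistant library was thus far below the lowest sensitive one. Cebpa averaged 25.3 ± 3.55 CPM in resistant and 95.8 ± 6.1 CPM in sensitive blasts (SD, n = 3 each), a log2 fold change of -1.93 ± 0.10 (SE, edgeR adjusted p = 3.15e-07), or 3.81-fold lower with a 95% interval of 3.28 to 4.42. It ranked 42nd of all genes tested by p-value.

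Cebpb (ENSMUSG00000056501, chromosome 2), whose product takes part in emergency granulopoiesis, had 62.8, 80.2 and 67.2 CPM in resistant libraries and 87.8, 95.7 and 103 CPM in sensitive libraries. Cebpd (ENSMUSG00000071637, chromosome 16), induced in maturing and inflamed myeloid cells, had 31.0, 37.0 and 29.4 CPM in resistant libraries and 41.6, 44.4 and 46.6 CPM in sensitive libraries. In both genes every resistant value lay below every sensitive value, and the gap was narrow. Cebpb fell by 0.45 ± 0.09 on the log2 scale (SE, edgeR adjusted p = 0.0034) and Cebpd fell by 0.45 ± 0.09 (edgeR adjusted p = 0.00336), so that both were lower by about the same proportion. The annotation places exons of Tmem189 opposite 312 bases of Cebpb (20.7% of its exons) and of Spidr opposite 562 bases of Cebpd (15%), and with the strand setting not given their reads cannot be told apart there. Tmem189 was at 40.7 CPM in resistant and 47.3 CPM in sensitive blasts (edgeR adjusted p = 0.0372), and Spidr at 51.3 and 57.0 CPM (edgeR adjusted p = 0.0838).

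Cebpe (ENSMUSG00000052435, chromosome 14), the factor of secondary granule genes, had 107, 135 and 89.4 CPM in resistant libraries, against 121, 125 and 143 CPM in sensitive libraries. Its groups overlapped, since resistant library 2 was above 2 of the sensitive libraries. The log2 fold change was -0.23 with a 95% interval of -0.51 to 0.04 (edgeR adjusted p = 0.161), which does not show that the groups were alike. Without resistant library 2 it was -0.39 and passed (edgeR adjusted p = 0.012), and without a low-count filter it also passed (0.0446); over 15 alternatives the adjusted p ranged from 0.012 to 0.519. Its spread among resistant libraries, a coefficient of variation of 20.7%, was the widest of the 10 genes after that of Klf4.

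Because Cebpa fell more than the other C/EBP members, the make-up of mRNA over the 4 genes differed. Cebpg, a C/EBP gene that is not among the members, was left out of these shares. Expressed as CPM per kilobase of merged exons, so that genes of different length can be added, the 4 genes summed to 154 ± 25.7 in resistant and 216 ± 13.3 in sensitive blasts. Cebpa made up 5.79%, 6.04% and 6.97% of that sum in resistant libraries and 18.1%, 17.9% and 14.7% in sensitive libraries. Cebpe made up 59.6%, 59.4% and 53.8% in resistant libraries and 47.7%, 47.0% and 50.1% in sensitive libraries. Resistant blasts thus held the smaller Cebpa share and the larger Cebpe share in every library, whereas the shares of Cebpb (30.5 ± 2.5% and 29.4 ± 0.607%) and Cebpd (5.66 ± 0.239% and 5.46 ± 0.0555%) differed by less than the SD of the resistant group. These shares were chosen for display after the values were seen and were not tested.

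**Figure D2:**
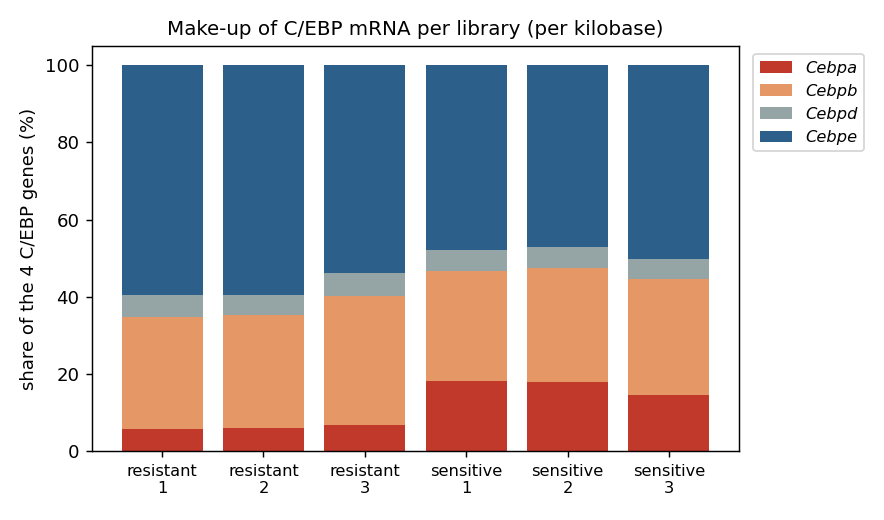
Share of each of the 4 C/EBP genes in their summed level per kilobase, one bar for each library, resistant at the left and sensitive at the right. The red Cebpa segment is 5.79% to 6.97% in resistant and 14.7% to 18.1% in sensitive libraries, and the Cebpe segment is the largest of the 4 in each of the 6 libraries.

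The C/EBP gene next to Cebpa fell with it. Cebpg, whose product pairs with other C/EBP proteins and lacks an activation domain, is the tested gene adjacent to Cebpa on chromosome 7 in the GENCODE order. It averaged 16.6 ± 4.21 CPM in resistant and 48.8 ± 5.75 CPM in sensitive blasts (log2 fold change -1.56 ± 0.16, edgeR adjusted p = 4.41e-05). Gpatch1, the tested gene on the other side of Cebpa, did not pass (log2 fold change -0.05, edgeR adjusted p = 0.573), nor did Pepd, beyond Cebpg, at 56.5 CPM in resistant and 54.8 CPM in sensitive blasts (0.04, edgeR adjusted p = 0.588). Over all 10 members, the nearest tested gene on each side was lower in 3 of 20 cases, higher in 5 and not passing in 12, against 20.8% lower and 18.5% higher of all genes tested. Besides Cebpg, the lower ones were Tmem189 beside Cebpb and Mthfsd beside Irf8 (-0.72, edgeR adjusted p = 0.00181). Cox4i1, on the other side of Irf8, was higher (0.25, adjusted p = 0.00317). Cebpg was in the family list, while its place beside Cebpa was looked up after its value was seen.

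The monocyte factors were the other members with a fall beyond 2-fold. Irf8 (ENSMUSG00000041515, chromosome 8), whose loss in mice shifts progenitors from monocytes to neutrophils, had 41.2, 40.6 and 33.8 CPM in resistant libraries, against 95.3, 81.1 and 72.0 CPM in sensitive libraries. The groups did not overlap. Irf8 averaged 38.5 ± 4.1 CPM in resistant and 82.8 ± 11.7 CPM in sensitive blasts (log2 fold change -1.10 ± 0.11, edgeR adjusted p = 3.02e-05), 2.15-fold lower with a 95% interval of 1.82 to 2.53.

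Klf4 (ENSMUSG00000003032, chromosome 4), a zinc finger factor of inflammatory monocytes, was near the limit of detection. It had 8, 3 and 4 counts in resistant libraries and 31, 22 and 14 counts in sensitive libraries, or 0.252, 0.137 and 0.156 CPM against 1.07, 0.863 and 0.449 CPM. Every resistant value was below every sensitive one, and 1 resistant library was at the floor of 3 counts. The log2 fold change was -2.05 ± 0.45 (edgeR adjusted p = 0.00528), and the ratio of the summed counts, 15 and 67, was 4.13-fold lower with an exact 95% interval of 2.34 to 7.79 that covers counting error only. A filter of 1 CPM removed Klf4 from the test.

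Gfi1 (ENSMUSG00000029275, chromosome 5), a repressor needed for neutrophils, had 139, 171 and 147 CPM in resistant libraries and 159, 192 and 199 CPM in sensitive libraries. Resistant library 2 lay above sensitive library 1, so the groups overlapped. Gfi1 passed the test as lower by a small amount (log2 fold change -0.27 ± 0.10, edgeR adjusted p = 0.0457). This call was lost with upper quartile scaling (edgeR adjusted p = 0.0546), without resistant library 1 (0.15), resistant library 3 (0.139), sensitive library 2 (0.147) or sensitive library 3 (0.168), and 0.168 was the highest over 15 alternatives.

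Among the factors of early progenitors, Runx1 (ENSMUSG00000022952, chromosome 16), the DNA-binding subunit of core binding factor, had 90.0, 87.9 and 74.7 CPM in resistant libraries and 97.0, 103 and 105 CPM in sensitive libraries. The groups did not overlap, but the step between the nearest libraries was small. Its log2 fold change was -0.27 ± 0.07 (edgeR adjusted p = 0.0149). The call was lost without sensitive library 2 (edgeR adjusted p = 0.0559) or sensitive library 3 (0.0603, the highest over 15 alternatives).

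Spi1 (ENSMUSG00000002111, chromosome 2), encoding PU.1, had 255, 287 and 289 CPM in resistant libraries and 284, 304 and 329 CPM in sensitive libraries. Its groups overlapped, and its log2 fold change of -0.14 had a 95% interval of -0.30 to 0.01 (edgeR adjusted p = 0.124). With 1 library left out it lay between -0.19 and -0.09 and did not pass in any of the 6 fits. Myb (ENSMUSG00000019982, chromosome 10), the most abundant of the 10 in counts, had 797, 871 and 712 CPM in resistant libraries and 832, 889 and 913 CPM in sensitive libraries. These groups overlapped through resistant library 2, with a log2 fold change of -0.15 and a 95% interval of -0.30 to 0.01 (edgeR adjusted p = 0.129). Without resistant library 2 Myb passed as lower (-0.21, edgeR adjusted p = 0.034; 0.034 to 0.441 over 15 alternatives). For both genes the interval leaves out falls beyond 0.30 on the log2 scale in this fit, a bound well short of the change in Cebpa.

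**Figure D3:**
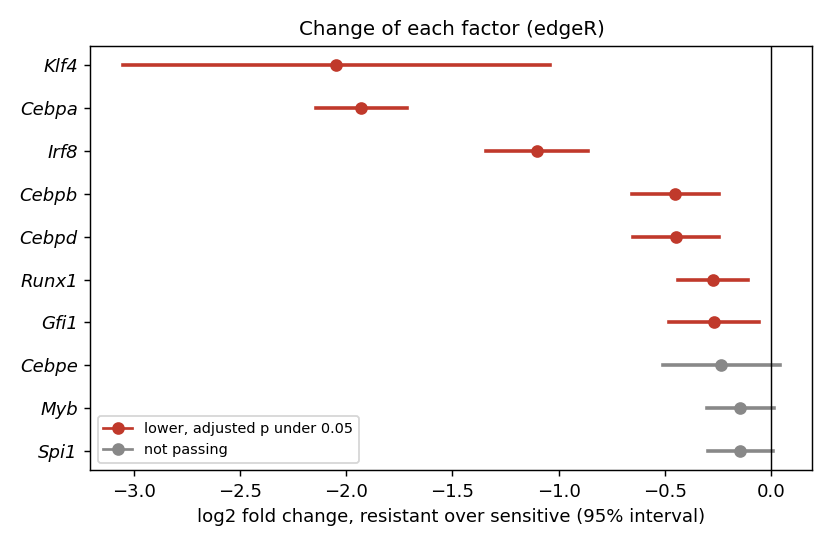
Log2 fold change, resistant over sensitive, of each factor with its 95% interval from the edgeR quasi-likelihood fit of 3 against 3 libraries; red genes passed at an adjusted p of 0.05 and grey ones did not. Klf4, Cebpa and Irf8 lie at -2.05, -1.93 and -1.10, and the other 7 lie between -0.45 and -0.14.

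The members also differed in how they varied within a group. Among resistant libraries, library 2 was the highest for 6 of the 10 genes: Cebpa, Cebpb, Cebpd, Cebpe, Gfi1 and Myb. Among sensitive libraries, library 1 was the lowest and library 3 the highest for the same 7 genes: Spi1, Cebpb, Cebpd, Cebpe, Gfi1, Runx1 and Myb. Irf8 and Klf4, the monocyte factors, ran the other way, highest in sensitive library 1 and lowest in sensitive library 3, and highest in resistant library 1. Parts of this order were shared, since Cebpa was also lowest in sensitive library 3 and Runx1 also highest in resistant library 1. The order of Klf4 rests on few counts. The share of all genes tested with these orders was not counted, so the orders are not shown to be particular to these factors. On the second principal component of all genes tested, resistant library 2 lay at -27.6 against 11.1 and 15.3. Sensitive libraries 1, 2 and 3 lay there at 11.9, -0.33 and -10.3. Coefficients of variation were 6.90% to 20.7% in resistant and 4.14% to 14.2% in sensitive blasts for the 9 genes other than Klf4.

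Compared per kilobase of merged exons, the order of the levels was similar in both groups. In resistant blasts Spi1 stood at 103 ± 7.08 CPM per kilobase, Cebpe at 88.9 ± 18.4 and Myb at 88.8 ± 8.9, and these 3 overlapped library by library. Next came Gfi1 at 47.8 ± 5.19 and Cebpb at 46.6 ± 6.04 CPM per kilobase, which also overlapped each other. Then followed Cebpa at 9.58 ± 1.35 and Cebpd at 8.66 ± 1.06 CPM per kilobase, overlapping, then Runx1 at 7 ± 0.688, Irf8 at 5.46 ± 0.582 and Klf4 at 0.0595 ± 0.0203, with no overlap between these last steps. In sensitive blasts Spi1 led at 114 ± 8.34 CPM per kilobase, followed by Cebpe at 104 ± 9.51 and Myb at 98.3 ± 4.69, each overlapping the next. Cebpb at 63.6 ± 5.11 and Gfi1 at 57.6 ± 6.83 CPM per kilobase also overlapped. Cebpa stood apart there at 36.3 ± 2.32 CPM per kilobase, above Cebpd at 11.8 ± 0.665 and Irf8 at 11.7 ± 1.66, which overlapped, then Runx1 at 8.46 ± 0.35 and Klf4 at 0.26 ± 0.103. Against the 13001 tested genes with a length, the mean level of Cebpa was at percentile 60.8 in resistant and 88.1 in sensitive blasts, and that of Irf8 at 47.4 and 65.3. With the length of the longest transcript in place of merged exons, Myb led in both groups, at 215 in resistant and 238 in sensitive blasts, over Spi1 at 136 and 150.4 CPM per kilobase. The order changed further down as well. In resistant blasts Runx1 at 14.4 and Irf8 at 11.1 CPM per kilobase stood above Cebpa at 9.62 and Cebpd at 8.66. In sensitive blasts Irf8 at 23.9 and Runx1 at 17.3 stood above Cebpd at 11.8, and Gfi1 at 64.2 above Cebpb at 63.6. The order thus depends on the length used in both groups.

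**Figure D4:**
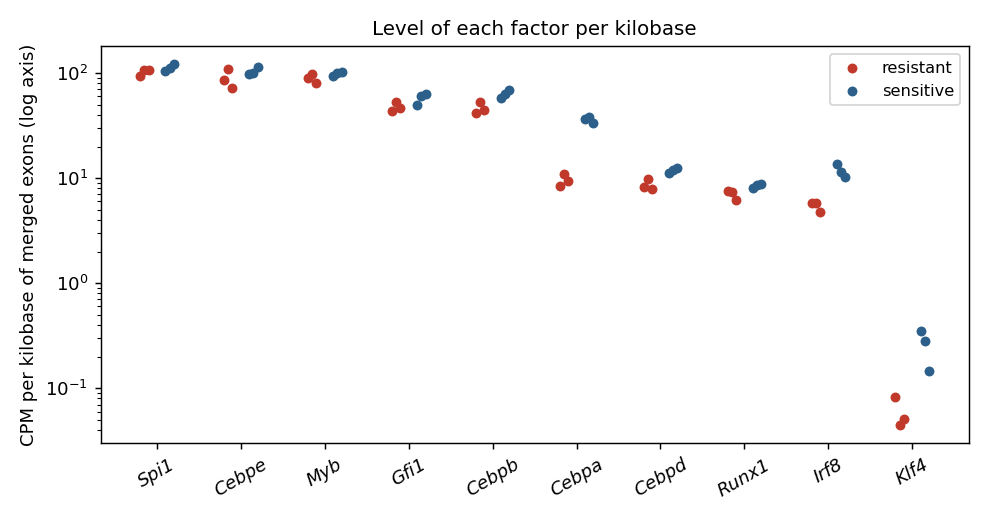
Level of each factor in CPM per kilobase of merged exons, on a log axis, in resistant (red) and sensitive (blue) libraries, one point for each library. Cebpa lies near Cebpd in resistant libraries and well above it in sensitive libraries, and Klf4 is more than 10-fold below every other factor in both groups.

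Ratios of 2 factors within a library do not depend on library scaling. The log2 ratio of Gfi1 over Irf8, which oppose each other at the neutrophil and monocyte branch, was 1.75, 2.07 and 2.12 in resistant libraries and 0.74, 1.25 and 1.47 in sensitive libraries. That of Cebpa over Spi1 was -3.53, -3.30 and -3.55 in resistant libraries and -1.55, -1.59 and -1.88 in sensitive libraries. The ratio thus moved toward Gfi1 in the first pair and away from Cebpa in the second. The ratio of Cebpe over Klf4 was higher by 1.47 on the log2 scale in resistant blasts and that of Myb over Cebpb by 0.30. A prior count of 2 was added before each log, and the Klf4 ratio depended on it, since Klf4 had few counts. That difference was 1.73 with a prior count of 0.5 and 1.13 with 5. For each of the 4 ratios the groups did not overlap, and the exact two-sided permutation p was 0.1 (0.1 adjusted over the 4), the smallest that 3 against 3 libraries allow, so none could pass the threshold.

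Most granulocyte genes known to be activated by C/EBP factors were lower in resistant blasts. Of 16 such genes 10 were lower, 1 was higher and 5 did not pass, with a median of -1.10, beside 20.8% lower and a median of -0.01 over all genes tested. Mmp8, a collagenase of specific granules, averaged 0.144 ± 0.0449 CPM in resistant and 2.44 ± 0.706 CPM in sensitive blasts (log2 fold change -4.08, edgeR adjusted p = 2.36e-05). With 3, 4 and 4 counts of Mmp8 in resistant libraries, at or just above the floor, the size of that fall is loosely set. Lyz2, lysozyme, was at 18.1 ± 3.06 and 68.4 ± 12.4 CPM (-1.91, adjusted p = 5.51e-06), Ngp, a neutrophil granule protein, at 11.9 ± 2.72 and 44.2 ± 8.85 CPM (-1.89, adjusted p = 2.22e-05), and Hp, haptoglobin, at 374 ± 6.42 and 545 ± 17.7 CPM (-0.54, adjusted p = 1.73e-05), resistant before sensitive and by the same edgeR test. Among primary granule genes, Elane, neutrophil elastase, was lower (-0.98, edgeR adjusted p = 0.000295), while Mpo (-0.33, adjusted p = 0.0512) and Prtn3 (-0.02, adjusted p = 0.877) did not pass. The higher gene, Ctsg (0.22, edgeR adjusted p = 0.0345), lost its call without resistant library 2, resistant library 3 or sensitive library 2, when the count of higher genes was 0.

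Some markers of other cells were lower in resistant blasts, and others were higher. The 8 mature neutrophil markers, 6 of them also in the C/EBP target list, summed to 28.9 to 47.3 CPM in resistant and 132 to 152 CPM in sensitive libraries, with 6 of 7 tested lower. The 8 red cell markers summed to 0.284 to 1.77 CPM in resistant and 46.1 to 80.9 CPM in sensitive libraries, with 6 of 6 tested lower. Of 5 dendritic cell markers 1 of 2 tested was lower, with sums of 2.32 to 2.89 CPM in resistant and 13.2 to 17.6 CPM in sensitive libraries. The lower one was Itgax, at 1.04 ± 0.169 and 13.1 ± 2.3 CPM, and Cd209a was at 0 in all libraries. Of 7 macrophage markers 0 were lower and 1 was higher, with sums of 346 to 437 CPM in resistant and 277 to 314 CPM in sensitive libraries. Vcam1, the higher one (240 and 161 CPM, edgeR adjusted p = 0.00498), and Adgre1 (145 and 133 CPM, adjusted p = 0.353) made up most of these sums. Cd163 was at 2.4 and 2.46 CPM, and C1qa, C1qb, C1qc and Mrc1 averaged 0.341 to 0.671 CPM in either group. Of 6 eosinophil, basophil and mast cell markers 5 were tested, 1 was higher and 3 were lower, with sums of 252.7 to 345 CPM in resistant and 95.9 to 127 CPM in sensitive libraries. The higher one, Prg2, an eosinophil granule protein, averaged 301 ± 51.8 CPM in resistant and 71.8 ± 22.1 CPM in sensitive blasts (2.06, edgeR adjusted p = 2.26e-05). Prg2 made up most of these sums. Epx, the other eosinophil marker, was at 0.456 and 0.429 CPM and did not pass (adjusted p = 0.922). Cpa3, a mast cell protease, was lower at 6.88 ± 0.843 and 30.6 ± 8.63 CPM (-2.14, adjusted p = 1.25e-05), as were Mcpt8 and Ms4a2. Nkg7 was higher too, at a mean of 86.7 CPM in resistant and 55.4 CPM in sensitive blasts (0.64, edgeR adjusted p = 0.00357). Of 6 megakaryocyte markers 3 were tested: Gp1ba was higher (1.23, edgeR adjusted p = 0.00352) and Itga2b was lower (-0.70, adjusted p = 0.00376). The part of these cells in the changes of Cebpa, Irf8, Klf4 and the target genes was not tested. Leaving the marker genes of red cells, macrophages, lymphoid cells, megakaryocytes and stroma out of the scaling left 7 members lower and 0 higher. That run altered the scaling alone, so it cannot show whether the make-up of cells differed. Markers of neutrophils, dendritic cells, eosinophils, basophils and mast cells were not left out.

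Among PU.1 targets more were lower than higher. Of 16 genes known to be activated by PU.1, 8 were lower, 2 were higher and 6 did not pass, with a median of -0.21, beside 20.8% lower and 18.5% higher of all genes tested. The integrin subunit genes Itgb2 (312 ± 16.9 CPM in resistant and 446 ± 11.8 CPM in sensitive blasts, -0.51, edgeR adjusted p = 5.47e-05) and Itgam (235 ± 5.27 and 314 ± 6.86 CPM, -0.42, adjusted p = 0.000105) were lower. Csf1r, the receptor of the macrophage growth factor, was at 18.6 ± 2.82 CPM in resistant and 35.9 ± 5.43 CPM in sensitive blasts (-0.94, edgeR adjusted p = 0.000294). Fcgr1, the high-affinity IgG receptor, was higher, at 1.54 ± 0.164 and 0.211 ± 0.0219 CPM (2.84, edgeR adjusted p = 5.43e-05). Each sensitive library held only 6 counts of Fcgr1, so the size of that rise is loosely set. The count of higher PU.1 targets was 1 without resistant library 1, resistant library 3, sensitive library 1 or sensitive library 3.

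Of 10 genes known to be activated by IRF8 or KLF4, 7 were tested, 4 were lower, 1 was higher and 2 did not pass, with a median of -0.16, beside the 20.8% and 18.5% of all genes tested. The protease gene Ctss was at 18.9 ± 3.19 CPM in resistant and 31.6 ± 4.74 CPM in sensitive blasts (-0.74, edgeR adjusted p = 0.00192) and Cybb, the oxidase subunit, at 4.97 ± 1.56 and 9.28 ± 0.824 CPM (-0.89, adjusted p = 0.00537). Cst3, cystatin C, fell by 0.16 (edgeR adjusted p = 0.0359), and Cd14, the endotoxin co-receptor, was higher (0.84, adjusted p = 0.0138). The count of lower genes was 2 without resistant library 1, resistant library 2, sensitive library 1 or sensitive library 2, and that of higher genes 0 without sensitive library 1.

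Genes that GFI1 is known to repress did not move one way. Of 12, 10 were tested, 4 were lower, 1 was higher and 5 did not pass, with a median of -0.01, where all genes tested had 20.8% lower and 18.5% higher. Id2, an inhibitor of helix-loop-helix factors, was at 2.7 ± 0.331 CPM in resistant and 9.81 ± 1.65 CPM in sensitive blasts (-1.85, edgeR adjusted p = 1.48e-05), and Gfi1b, the paralog of Gfi1 in red cells and megakaryocytes, at 0.164 ± 0.107 and 1.19 ± 0.163 CPM (-2.74, adjusted p = 0.000572). Gfi1b had 8, 1 and 5 counts in resistant libraries, near or below the floor. Csf1r is in this list too, and Hoxa9 rose by 0.44 (edgeR adjusted p = 0.00088). Without resistant library 2 the count of higher genes was 2.

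Of 13 MYB targets 5 were lower, 3 were higher and 5 did not pass, with a median of -0.17, set against 20.8% lower and 18.5% higher over all genes. Bcl2, which blocks cell death, fell to 5.47 ± 0.842 CPM in resistant blasts, against 18.9 ± 4.09 CPM in sensitive blasts (-1.80, edgeR adjusted p = 2.65e-05). Sox4, a factor that C/EBPα is known to repress, was at 76.3 ± 6.13 and 119 ± 14 CPM (-0.65, edgeR adjusted p = 0.00027), and Elane at 255 ± 50.5 and 503 ± 75.1 CPM (-0.98, adjusted p = 0.000295). Cdk6, a cell cycle kinase, rose by 0.44 (edgeR adjusted p = 0.000246), and Hoxa9 and Cd34 were the other higher genes. Myc was at 138 ± 25.9 CPM in resistant and 148 ± 2.81 CPM in sensitive blasts (edgeR adjusted p = 0.469).

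**Figure D5:**
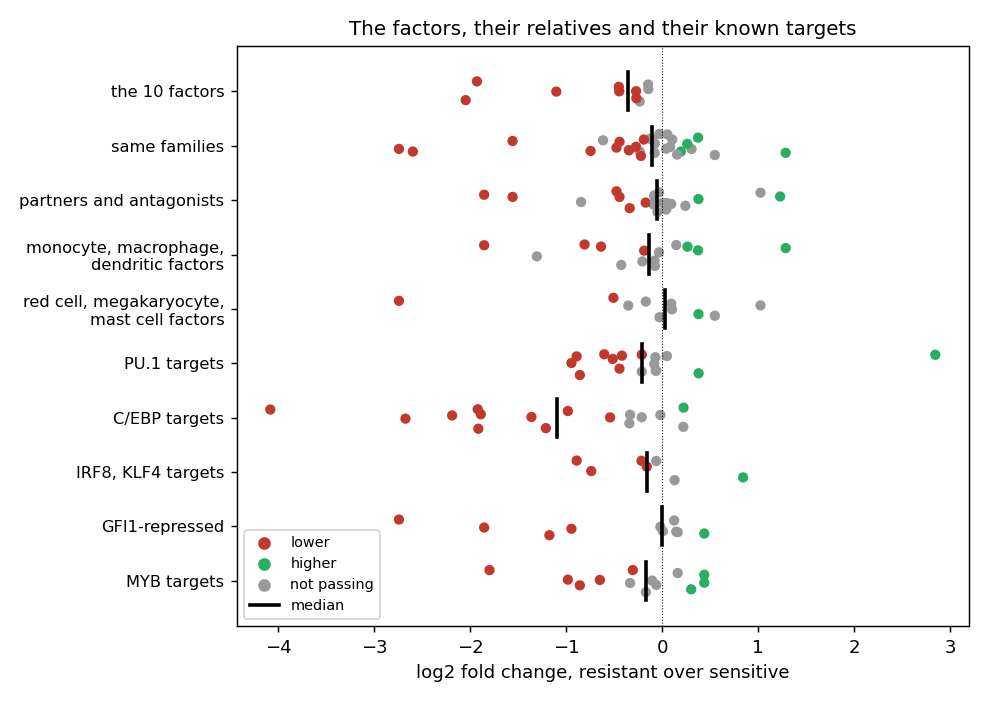
Log2 fold change, resistant over sensitive, of each tested gene in the 10 factors, their relatives and partners, other lineage factors and known targets; red genes were lower and green genes higher at an adjusted p of 0.05, and black bars are medians. All 10 factors lie left of 0, and the C/EBP targets have the lowest median, -1.10.

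Relatives of the 10 factors included lower and higher genes. Of 30 other members of the same families, 29 were tested, 10 were lower, 4 were higher and 15 did not pass, with a median of -0.10, while 20.8% of all genes tested were lower and 18.5% higher. Ets1, an ETS factor best known in lymphoid cells, fell to 9.49 ± 3.35 CPM in resistant blasts, against 57 ± 3.15 CPM in sensitive blasts (-2.60, edgeR adjusted p = 3.78e-06). Klf2, a relative of Klf4, rose to 10.2 ± 0.635 CPM, against 4.18 ± 0.294 CPM (1.29, edgeR adjusted p = 2.27e-05). Runx2, Runx3 and Fli1 did not pass, with log2 fold changes of 0.05, -0.10 and -0.03. Without sensitive library 2 or sensitive library 3, 6 relatives were lower and 2 higher.

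Of 26 protein partners, cofactors and antagonists, 21 were tested, 6 were lower, 2 were higher and 13 did not pass, with a median of -0.05, beside 20.8% lower and 18.5% higher over all genes tested. Cbfb, the partner of RUNX1, was at 169 ± 23.1 CPM in resistant and 173 ± 14 CPM in sensitive blasts (edgeR adjusted p = 0.812), and Kdm1a, a GFI1 corepressor, at 72 ± 2.66 and 69.5 ± 3.45 CPM (adjusted p = 0.555). Irf1 (-0.48, edgeR adjusted p = 0.000931) and Cbfa2t3, a corepressor of the ETO family (-0.34, adjusted p = 0.0148), were lower, as were Id2 and Cebpg, given above. Trib2, whose product promotes breakdown of C/EBPα, averaged 0.0235 CPM in resistant and 0.0229 CPM in sensitive blasts, and Trib1 0.194 and 0.329 CPM, too low to be tested. The count of higher genes was 0 without sensitive library 2 and 1 without sensitive library 3, and that of lower genes was 3 without sensitive library 1.

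Other lineage factors were read against all genes tested, of which 20.8% were lower and 18.5% higher. Of 17 further factors of monocytes, macrophages and dendritic cells, 14 were tested, 4 were lower, 3 were higher and 7 did not pass, with a median of -0.13. Zeb2 (0.26, edgeR adjusted p = 0.00313) and Irf5 (0.37, adjusted p = 0.00606) were higher together with Klf2. The count of lower genes was 2 without resistant library 2, sensitive library 2 or sensitive library 3. Of 10 factors of red cell, megakaryocyte and mast cell lineages, 2 were lower, 1 was higher and 7 did not pass, with a median of 0.03, a share of lower genes near that of all genes. Nfe2, a megakaryocyte factor, was at 118 ± 12.1 CPM in resistant and 167 ± 0.523 CPM in sensitive blasts (-0.51, edgeR adjusted p = 0.000362), Zfpm1, the GATA partner FOG1, rose by 0.38 (adjusted p = 0.0155), and Gata2 was at 63 ± 0.934 and 59 ± 1.7 CPM (adjusted p = 0.219). Gata1 did not pass either, at 1.1 ± 0.554 and 0.551 ± 0.0375 CPM (1.02, edgeR adjusted p = 0.0502), though its resistant values lay above its sensitive ones. Zfpm1, the 1 higher gene, lost its call when sensitive library 2 was left out (a count of 0), and 2 were higher without resistant library 3.

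By the distance between log2 CPM profiles over the 6 libraries, each centred on its own mean, the genes nearest to Klf4 among 11134 searched were Pirb (distance 0.504), Hpse (0.638) and Pira2 (0.668), of which Pirb and Pira2 belong to 1 receptor family whose members share similar sequence. The genes nearest to Cebpa, looked up after its values were seen, were Rnf145 (0.231), Gsn (0.251) and Pcp4l1 (0.293). Gsn, the actin-severing protein gelsolin, averaged 19.1 CPM in resistant and 76.5 CPM in sensitive blasts. The distances rest on 6 libraries in 2 groups, so a gene with a like fall is near whatever its function. The profiles carry a prior count of 2, which shrinks the fall of Klf4, while the genes searched had a mean of at least 50 counts. Pirb, Hpse and Pira2 had edgeR log2 fold changes of -1.69, -1.65 and -1.58, smaller falls than the -2.05 of Klf4.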

How the data were processed

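The authors deposited whole-number counts per Ensembl gene for 6 libraries of total RNA, 1 column each, with 0 columns unused. TopHat2, RSEM and the mouse build mm9 are named in the submitters' processing notes, without versions or roles; whether the counts are direct or rounded RSEM estimates is not stated, nor are annotation and strand setting. IDs were matched to symbols, lengths, exon overlaps and gene order with GENCODE M21 (a later build). Low-count genes were removed by filterByExpr, libraries were scaled by TMM, and edgeR 4.0.16 (R 4.3.3) tested group as the only term by its quasi-likelihood F test, the Benjamini-Hochberg adjustment covering 13414 genes; the SE is the log2 fold change over the root of F. The common dispersion gives a coefficient of variation of 8.37%. Chi-square over its degrees of freedom was 3.92 to 13.6 between libraries of the same group, so none was a copy. The edgeR step was tested on simulated counts. Members and lists were chosen with earlier results of these data known, and target lists come from general knowledge. Named were all members, up to 4 called genes with the smallest adjusted p in each list, and the 3 nearest profiles; others are named as markers, partners or genes that did not pass, chosen after their values were seen. Alternatives were 3 scalings, DESeq2 1.42.0, limma-voom (limma 3.58.1), 2 filters, a replicate block, other cell types' genes left out of the scaling, and each library left out.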

Additional observations from a re-analysis of the deposited data

How the results depend on the processing

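Directions of all 10 factors held in every alternative run, and Cebpa, Cebpb, Cebpd, Irf8 and Klf4 kept their calls (Klf4 in 14, since the 1 CPM filter removed it). The count of lower factors was 5 to 9 with 1 library left out and 6 to 8 otherwise, and that of higher factors was 0 throughout. The replicate numbers did not pair the libraries: same-numbered deviations correlated at 0.04, -0.01 and -0.09. With the replicate block 8 factors were lower, Spi1 passing with an edgeR adjusted p = 0.0455 (0.0455 to 0.399 over 15 alternatives). Of all genes, 1641 to 2521 were higher with 1 library left out, the lowest without sensitive library 2. With 1 library left out, counts ranged as follows: relatives 2 to 5 higher and 6 to 10 lower; partners 0 to 3 higher and 3 to 6 lower; monocyte, macrophage and dendritic factors 2 to 3 lower; red cell, megakaryocyte and mast cell factors 0 to 2 higher; PU.1 targets 1 to 2 higher; C/EBP targets 0 to 1 higher; IRF8 and KLF4 targets 0 to 1 higher and 2 to 3 lower; GFI1-repressed genes 1 to 2 higher. Without a low-count filter 4 partners, 2 red cell, megakaryocyte and mast cell factors and 2 GFI1-repressed genes were higher. With limma-voom 1 partner was higher, with RLE scaling 2 red cell, megakaryocyte and mast cell factors, and with library totals alone 0 C/EBP targets. The cause of these shifts was not tested. Levels in resistant blasts with the longest transcript's length, which is shorter by construction, were 136 for Spi1, 11.1 for Irf8, 53.3 for Gfi1, 14.4 for Runx1 and 215 CPM per kilobase for Myb. The 4 ratios kept their sign. Klf4, at 3 to 31 counts a library, is limited by depth.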
